A study of Mus musculus with 8 samples.

Results

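APOBEC2 ChIP-seq gave 369 stretches of the mouse genome (mm10), each with a called peak in exactly 2 of 3 libraries made 34 h after differentiation was induced and in no library made 14 h after it. Peaks of the 6 libraries that overlapped by at least 1 bp were merged into 5567 regions on chromosomes 1 to 19, X and Y, and 916 of these (16.5%) had that pattern of peaks. Of the 916 regions, 447 had no protein-coding gene boundary (an annotated start or end) at most 1 kb away, 100 had boundaries of 2 such genes, and 369 had those of exactly 1. The 369 regions, 6.63% of all merged regions, are described here. It belongs to 364 genes, which is 1.66% of the 21887 protein-coding genes of the mm10 gene table. The regions were chosen by the presence or absence of called peaks, so every comparison of the times or libraries below is a description with no test, and the folds are those of peaks that had passed the authors' calling threshold.

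All samples came from C2C12 cells, a mouse myoblast line that stops dividing and forms muscle fibres when serum is withdrawn. The cells carried no other genetic change that the sample labels give, were moved to medium with 2% horse serum, and were fixed for chromatin immunoprecipitation with a rabbit polyclonal antibody to APOBEC2. Each time had 3 immunoprecipitated libraries and 1 input, and the peaks of a library were called against the input of its own time. The earlier time is 14 h in the titles and characteristics but 24 h in the growth protocol, so it is uncertain. The names of all 6 peak lists also carry the tag GFPsh, whose meaning the labels do not give. Nothing in the labels says that the replicates came from separate cultures, and no library with a control antibody or from cells lacking APOBEC2 was used here.

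APOBEC2 is related to AID and the other APOBEC cytidine deaminases, which change cytosine to uracil in DNA or RNA, but no such activity is established for APOBEC2 itself. It is abundant in skeletal and heart muscle. A promoter is the stretch around a transcription start where general factors and RNA polymerase assemble, and many housekeeping promoters lie in CpG islands that hold GC boxes, the recognition sequence of SP and KLF zinc finger proteins, and CCAAT boxes, bound by NF-Y.

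The reference promoters of the 6 genes with the strongest regions are printed first, because most of these regions sat over the start of their gene. Each sequence runs 5′ to 3′ on the strand of the gene, from 250 bases before to 50 bases after the annotated start, and is taken from RefSeq (GRCm38.p6, mm10). Capitals mark matches on either strand to the GC box, whose letters are GGGCGG, to the CCAAT box, searched as CCAAT alone, and to the ETS site, searched as CCGGAAG; matches may overlap.
Zbtb5, chr4:45012363-45012662, minus strand: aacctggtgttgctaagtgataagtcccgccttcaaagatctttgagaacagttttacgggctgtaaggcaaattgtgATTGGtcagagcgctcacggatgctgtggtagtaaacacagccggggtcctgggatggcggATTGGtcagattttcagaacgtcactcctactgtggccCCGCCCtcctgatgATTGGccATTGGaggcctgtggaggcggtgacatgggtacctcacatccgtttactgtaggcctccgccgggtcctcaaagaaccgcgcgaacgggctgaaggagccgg
Ufl1, chr4:25281772-25282071, minus strand: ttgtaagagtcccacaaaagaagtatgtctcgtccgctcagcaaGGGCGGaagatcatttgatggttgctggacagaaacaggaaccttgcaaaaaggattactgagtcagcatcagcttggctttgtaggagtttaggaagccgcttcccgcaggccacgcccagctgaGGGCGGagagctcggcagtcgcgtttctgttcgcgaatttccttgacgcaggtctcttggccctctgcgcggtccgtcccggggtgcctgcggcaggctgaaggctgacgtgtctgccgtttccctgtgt
Mrps14, chr1:160194965-160195264, plus strand: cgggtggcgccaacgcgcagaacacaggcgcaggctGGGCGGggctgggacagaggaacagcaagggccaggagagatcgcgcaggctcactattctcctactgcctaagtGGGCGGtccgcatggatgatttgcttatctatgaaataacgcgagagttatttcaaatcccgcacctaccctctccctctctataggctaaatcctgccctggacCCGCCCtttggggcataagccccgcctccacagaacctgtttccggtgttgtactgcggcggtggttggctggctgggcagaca
Limk1, chr5:134688541-134688840, minus strand: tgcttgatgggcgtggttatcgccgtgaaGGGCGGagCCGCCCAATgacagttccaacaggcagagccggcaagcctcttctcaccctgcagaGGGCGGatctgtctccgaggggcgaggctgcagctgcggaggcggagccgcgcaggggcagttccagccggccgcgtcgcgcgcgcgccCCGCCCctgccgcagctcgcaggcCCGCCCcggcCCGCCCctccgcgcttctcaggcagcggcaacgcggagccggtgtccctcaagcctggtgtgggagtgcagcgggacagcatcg
Trim24, chr6:37870561-37870860, plus strand: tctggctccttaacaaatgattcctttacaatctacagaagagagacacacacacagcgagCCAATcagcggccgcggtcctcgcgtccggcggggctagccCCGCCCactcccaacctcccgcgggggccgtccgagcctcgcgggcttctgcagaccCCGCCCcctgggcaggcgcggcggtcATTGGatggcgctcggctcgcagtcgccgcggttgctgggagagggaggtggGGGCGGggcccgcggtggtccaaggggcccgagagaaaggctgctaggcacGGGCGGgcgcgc
Mtor, chr4:148448332-148448631, plus strand: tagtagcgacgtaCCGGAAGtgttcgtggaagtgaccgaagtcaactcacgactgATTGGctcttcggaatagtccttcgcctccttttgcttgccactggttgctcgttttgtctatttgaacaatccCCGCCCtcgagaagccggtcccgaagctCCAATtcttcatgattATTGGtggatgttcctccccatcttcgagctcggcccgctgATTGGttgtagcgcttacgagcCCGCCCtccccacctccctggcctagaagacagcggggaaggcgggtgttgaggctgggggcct

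Zbtb5 held 1 GC box and 4 CCAAT boxes, Ufl1 held 2 GC boxes, and Mrps14 held 3 GC boxes. Limk1 held 6 GC boxes and 1 CCAAT box, and Trim24 held 4 GC boxes and 2 CCAAT boxes. The Limk1 summit lay at −314 bp from the start used, outside the printed window. That start is an internal one, and the summit lay 955 bp from the gene boundary. The Limk1 region covered only part of its window, so some of the marked matches lay outside the region. Mtor held 2 GC boxes, 4 CCAAT boxes and 1 ETS site. A match is only a match of letters, and the files do not show which protein was bound to it.

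The strongest region was that of Zbtb5, a BTB zinc finger protein, at chr4:45012097-45012824. Fold is the authors' ratio of immunoprecipitated signal to local background at the peak summit, taken here with 1 added to each. At Zbtb5 it was 9.61 in replicate 1 and 13.1 in replicate 2 of 34 h, from 25 and 40 fragments over the summit. No peak was called there in replicate 3 of 34 h or in any of the 3 libraries of 14 h, and the lists give no value for a library without a peak. A missing peak is therefore not a level of 0. The region of Ufl1, the ligase that attaches the ubiquitin-like protein UFM1, lay at chr4:25281680-25282112 and had folds of 8.99 and 8.65 in replicates 1 and 2, from 27 and 43 fragments. Mrps14, a protein of the small mitochondrial ribosomal subunit, had folds of 8.35 and 11.8 at chr1:160194877-160195268, from 21 and 34 fragments. Limk1, the kinase that phosphorylates cofilin, had folds of 8.16 in both replicates at chr5:134688717-134689251. These 4 regions were the only members whose lower fold was 8 or more.

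Next came Trim24, a bromodomain co-regulator, with folds of 7.80 and 9.55 at chr6:37870404-37870941. Mtor, the kinase of the growth pathway that senses amino acids, had 7.56 and 9.28 at chr4:148448235-148448613. Wbp1l had 7.56 and 8.00 at chr19:46598801-46599129. Rbm15, a protein of the RNA m6A methyltransferase complex, had 7.53 and 10.8, with 29 and 50 fragments over its summits, and its region of 1180 bp at chr3:107332998-107334177 was the widest of all. All 8 regions were called in replicates 1 and 2. Arrdc3, an alpha-arrestin, was the strongest region of replicates 2 and 3, with 8.11 and 7.21 at chr13:80883232-80883556.

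**Figure D1:**
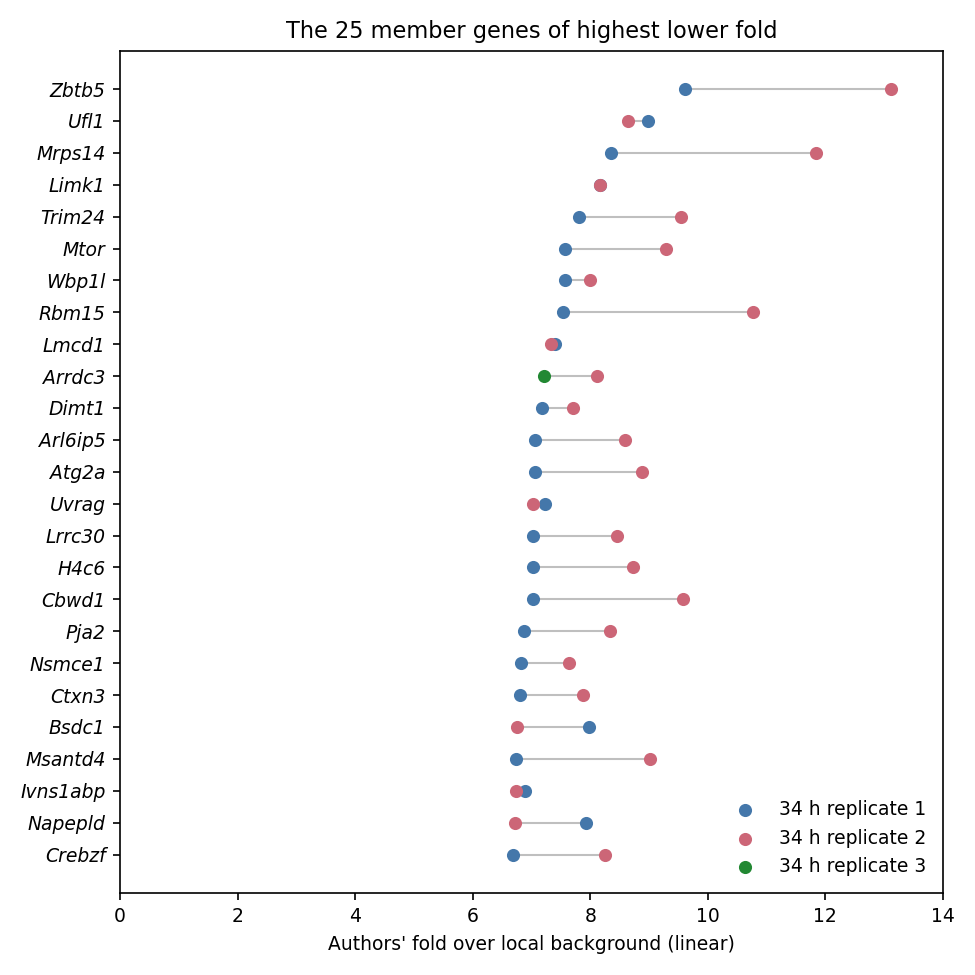
The authors' linear fold over local background (x axis) for the 25 genes with the highest lower fold (y axis); each point is the peak of 1 library of 34 h and a grey line joins the 2 libraries. Replicate 2 is the right-hand point for 18 of the 24 genes called in replicates 1 and 2, and Arrdc3 is the only gene of the 25 called in replicate 3; the 2 points of Limk1 coincide.

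The rest of the 25 strongest genes had a lower fold between 6.69 and 7.34. They included Lmcd1, a LIM protein of muscle (7.39 in replicate 1 and 7.34 in replicate 2), Dimt1, an 18S rRNA methyltransferase (7.18 and 7.70), and Arl6ip5 (7.06 and 8.59). Atg2a, a lipid transfer protein of the forming autophagosome, had 7.06 and 8.88, and Uvrag, a partner of the Beclin 1 lipid kinase complex, had 7.23 and 7.03. The histone gene H4c6 had 7.02 and 8.72, and Cbwd1 had 7.02 and 9.58. The ubiquitin ligase gene Pja2 had 6.88 and 8.34, and Nsmce1, a subunit of the SMC5/6 complex, had 6.82 and 7.64. Napepld, the enzyme that releases N-acylethanolamines, had 7.92 and 6.72. The others were Lrrc30, Ctxn3, Bsdc1, Msantd4, Ivns1abp and Crebzf. Of the 25 regions, 24 were called in replicates 1 and 2, and the fold was higher in replicate 2 for 18 of these.

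Few regions were that strong. The lower of a region's 2 folds had a median of 5.26 (quartiles 4.73 and 5.89), ran from 3.25 to 9.61, and was 6 or more in 82 of the 369 regions and 7 or more in 17. The weakest were Afg1l, with 6.44 in replicate 1 and 3.25 in replicate 2, and Eloc, the elongin C gene, with 3.63 and 5.11. Some regions were strong in 1 library only. Hint2, a mitochondrial hydrolase, had 4.81 in replicate 1 and 12.8 in replicate 2, Kdm3a, a histone H3K9 demethylase, had 4.82 and 10.9, and Gm536 had 11.2 in replicate 2 and 5.83 in replicate 3; these 3 were picked after their values were seen. Both peaks reached a −log10 q of 5, from the authors' q-values, in 255 regions and at least 1 did in 358. For comparison, the median lower fold at single genes was 5.27 in the 112 regions called in every library of 34 h but in none of 14 h, 7.66 in the 267 regions called in all 6 libraries, and 5.30 in the 970 regions called only in replicate 2 of 34 h. The lower fold is the lowest over 2 libraries for the 369 regions, over the 3 libraries of 34 h for the 112 and the 267, and a single value for the 970, so these medians are not on an equal footing. In replicate 2 alone the median folds were 6.17, 7.46, 12.6 and 5.30 in the same order, and the 369 regions lay between those called in replicate 2 only and those called in every library of 34 h.

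Replicates 1 and 2 shared 316 of the 369 regions (85.6%, exact 95% interval 81.6% to 89.1%), replicates 2 and 3 shared 51 (13.8%, 10.5% to 17.8%), and replicates 1 and 3 shared 2 (0.542%, 0.0657% to 1.94%). The intervals cover counting error only. The 2 regions of replicates 1 and 3 were those of Zranb1, a deubiquitinating enzyme (folds 6.58 and 6.12), and the histone gene H4c12 (5.63 and 7.04). The lists of the 3 libraries differed in length, with 2209 peaks in replicate 1, 5025 in replicate 2 and 1068 in replicate 3, and in the lowest −log10 q they held, 1.58, 2.03 and 2.49. The 14 h lists held 768, 1327 and 797 peaks. At regions of the same peak pattern away from gene boundaries the share of replicates 1 and 2 was 90.2% of 447, and at 2 genes it was 89.0% of 100, so the unequal sharing was of like size there. When every list was cut to its 768 peaks of highest significance, 41 regions met the rule, only 13 of the 364 genes were among them, and replicates 1 and 2 shared 51.2%. Without replicate 1 of 34 h, and with both remaining libraries required, 163 regions met the rule and 52 of the genes were kept. Without replicate 2 there were 113 regions and 2 of the genes, since all but 2 of the 369 regions rested on a peak of replicate 2.

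Against all peaks of their own lists, member peaks had lower median folds in replicates 1 and 3 and a higher one in replicate 2. Their median fold was 5.55 in replicate 1 (range 3.63 to 9.61, 318 peaks), 6.17 in replicate 2 (3.25 to 13.1, 367 peaks) and 5.60 in replicate 3 (4.26 to 7.86, 53 peaks), against 5.92, 5.72 and 6.04 for all peaks of those lists. By fold, the median member peak stood at the 39.3rd percentile of its list in replicate 1, the 60.6th in replicate 2 and the 39.3rd in replicate 3. A peak rested on few fragments, with a median of 17, 21 and 16 over the summit in the 3 libraries. Member peaks took 14.4%, 7.31% and 5.04% of the 3 lists.

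Within pairs, replicate 2 tended to have the higher fold. The fold in replicate 1 divided by that in replicate 2 had a median of 0.924 and was below 1 in 196 of 316 regions. The fold in replicate 3 divided by that in replicate 2 had a median of 0.889 and was below 1 in 40 of 51. In the regions called in all 6 libraries, the same medians were 0.792 and 0.653. After Arrdc3, the strongest regions of replicates 2 and 3 were those of Sertad3, a SERTA domain protein (6.79 and 6.52), and Luc7l2, a splicing factor of the U1 particle (6.43 and 7.86).

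**Figure D2:**
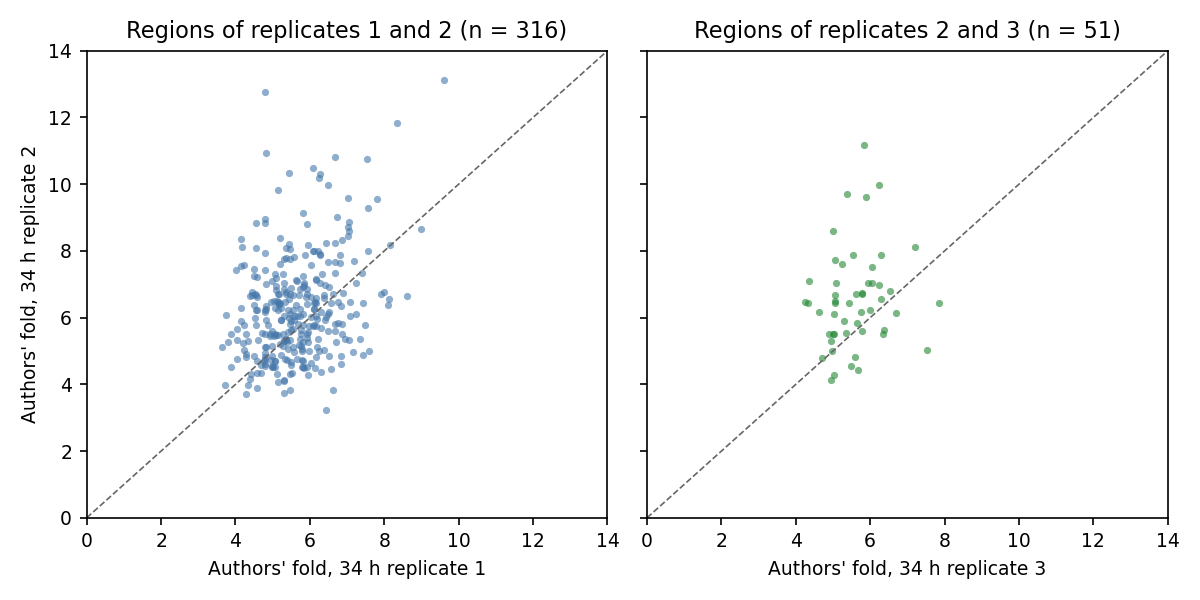
Each point is 1 region, with the authors' linear fold in replicate 2 of 34 h on the y axis and that in replicate 1 (left, 316 regions) or replicate 3 (right, 51 regions) on the x axis; the dashed line marks equal folds. More points lie above the line than below it in both panels, and Hint2, at 4.81 and 12.8, is the point farthest to the upper left.

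The rule kept only regions of overlapping peaks, so the summits of the 2 libraries had to lie near each other. Their spacing had a median of 50 bp and was at most 100 bp in 296 of 369 regions (80.2%). The merged regions had a median width of 332 bp. In 256 regions (69.4%) the merged region covered the gene boundary itself, and the mean summit lay a median of 97 bp from the boundary (quartiles 41 and 227.5 bp). It lay within 100 bp of it in 52.0% and within 250 bp in 77.2%. The corresponding medians were 61 bp for the regions of all 6 libraries and 103.8 bp for those of all 3 libraries of 34 h only. The regions whose summits lay closest to a boundary were those of Mdm2, the ubiquitin ligase of p53, and Ppp3r1, the regulatory subunit of calcineurin, both at 0 bp, then Ap4e1 at 0.5 bp, and Nabp1 and Rcan1 at 1.5 bp. Rcan1 encodes an inhibitor of calcineurin. The farthest were Rbm15 at 1287.5 bp, Pigv at 1184.5 bp, Map3k12 at 1147 bp, Tbx3 at 1112 bp and Foxo3 at 1072 bp; summits can lie beyond 1 kb because the rule measured from the edge of the region. The summit of Rbm15 was 116.5 bp from another annotated start of that gene.

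Nearly all of the boundaries were gene starts. The strand of the gene was known for 313 regions through RefSeq promoter entries that matched 308 of the 364 genes, and 305 of these (97.4%) were nearest the start. The other 8 were nearest the end, at Spata4, Ank, Krt10, Pigv, Susd1, Ppp2r1b, Tmem88b and 1810062G17Rik, with a median lower fold of 4.47 against 5.26 at starts. For 56 regions the start could not be told from the end. In the 296 regions within 1 kb of an annotated start, the summit lay upstream of it in 224 (75.7%) and downstream in 70, with a median of −75.5 bp (quartiles −150 and −3.5 bp). At the regions of all 6 libraries the median was −29.8 bp and 66.7% lay upstream. At those of all 3 libraries of 34 h only it was −102 bp and 80.9%.

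**Figure D3:**
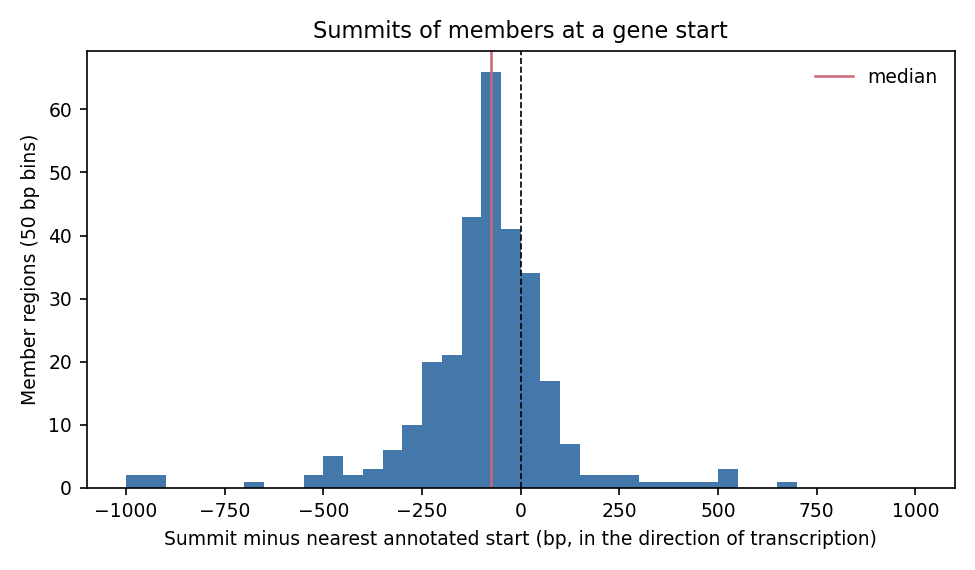
The number of regions (y axis) by the distance in bp from the nearest annotated start to the mean summit (x axis, 50 bp bins, negative values upstream of the start), for 296 regions within 1 kb of a start. The tallest bin lies just upstream of the start, and the red line marks the median of −75.5 bp.

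The promoters under the regions were rich in G and C. For 275 of the 369 regions (74.5%) the region overlapped the 300-base promoter window of its gene. These windows had a median GC content of 60.3% and a median observed to expected CpG ratio of 0.85, against 56.3% and 0.57 over the 21263 windows of all protein-coding genes with an entry. The windows under regions of all 6 libraries had 61.3% and 0.88. A GC box stood in 75.6% of the 275 windows (exact 95% interval 70.1% to 80.6%) against 46.2% of all windows, and a CCAAT box in 56.7% against 38.2%. Both stood together in 118 windows (42.9%), against 16.9% of all windows, and neither in 29 (10.5%), against 32.5%. These shares were compared without a test. In the 110 member windows with 60 to 70% GC, 83.6% held a GC box, against 77.0% of all windows of that GC content, and 54.5% held a CCAAT box, against 37.1%. In the 108 member windows with 50 to 60% GC the shares were 67.6% against 38.5% for the GC box and 65.7% against 41.0% for the CCAAT box. In the 14 below 50% GC the GC box shares were 35.7% and 6.73%, and in the 43 at 70% GC or more they were 88.4% and 92.5%, so the GC box share was above that of all windows in the lower 3 classes and below it in the highest.

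Among the other motifs, some shares were above and some below those of all promoters. The ETS site, recognised by ETS family activators such as GABP, stood in 19.6% of member windows and 11.6% of all. The YY1 site (AANATGGCG) stood in 8.36% against 3.12%, and the CACGTG E-box, bound by MYC and USF proteins, in 10.5% against 7.84%. The CAGCTG E-box, a form that myogenic bHLH factors bind, stood in 15.3% against 15.6%. The TATA box (TATAAA) stood in 9.09% against 12.6% and the AP-1 site (TGANTCA) in 2.18% against 6.99%. Other region sets follow in the order all 6 libraries, all 3 libraries of 34 h only, and replicate 2 only. Their YY1 shares were 4.78%, 9.41% and 7.68%, and their CACGTG shares 7.18%, 7.06% and 12.5%. Their TATA box shares were 3.83%, 4.71% and 6.43%, and their AP-1 shares 2.87%, 7.06% and 4.08%. The MEF2 site CTAAAAATA was matched in none of the 275 member windows and in 0.409% of all windows, a share too low to read anything from a count of 0 here.

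Motifs known from cell cycle genes stood in smaller shares of member windows than of windows under regions called at both times. The CHR element, searched as TTTGAA and in a second form as TTCGAA, through which the MuvB complexes hold late cell cycle genes, stood in 12.7% of member windows, 17.6% of all windows and 42.6% of the windows under regions of all 6 libraries. The E2F site (TTTCCCGC, TTTGGCGC, TTTGCCGC or TTTCGCGC) stood in 5.09%, 2.85% and 20.6%. Among windows with 60 to 70% GC the CHR shares were 4.55%, 9.21% and 39.6%, and among those with 50 to 60% GC they were 23.1%, 17.0% and 51.3%. Member windows thus lay below all windows in the first of these classes and above them in the second, and below the regions of all 6 libraries in both. The E2F shares were 5.45%, 4.72% and 19.8% at 60 to 70% GC, and 6.48%, 2.82% and 19.7% at 50 to 60% GC. For the E2F site the members thus lay above all windows in both classes, and below the regions of all 6 libraries. Shares below those of the regions of all 6 libraries were not particular to the members. Windows under regions of all 3 libraries of 34 h only held the CHR in 15.3% and the E2F site in 5.88%. Those under regions called only in replicate 2 held them in 10.3% and 3.92%. Against the regions of all 3 libraries of 34 h only, member windows held the CCAAT box in 56.7% against 81.2% of 85, and the ETS site in 19.6% against 8.24%. The other sets lay nearer the members. The CCAAT shares were 58.4% for the regions of all 6 libraries and 52.4% for replicate 2 only, and the ETS shares were 24.4% and 21.3%. All motifs were searched on both strands, and these differences between sets were not tested.

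**Figure D4:**
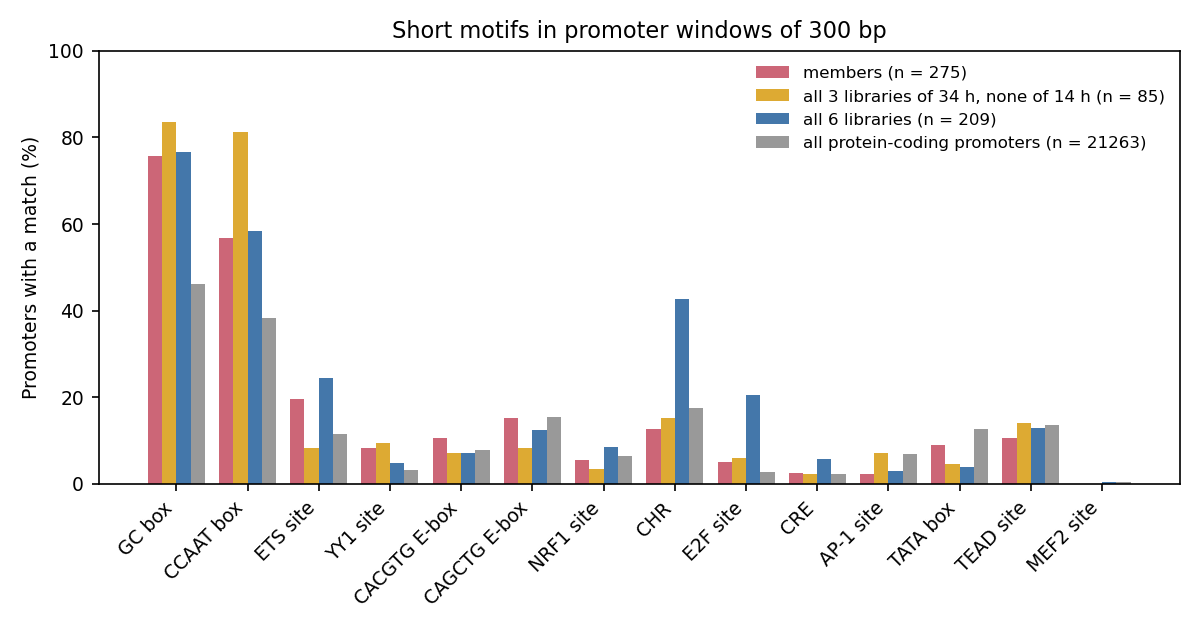
The percentage of 300-base promoter windows with at least 1 match to each motif on either strand (y axis, bars from 0), for windows under member regions (275), under regions of all 3 libraries of 34 h only (85), under regions of all 6 libraries (209), and for all protein-coding genes (21263). The GC box and CCAAT bars of the members are well above the grey bars, and those of the other region sets are at least as high. The CHR bar of the members, at 12.7%, is far below the 42.6% of the regions of all 6 libraries. At 15.3%, the CHR bar of all 3 libraries of 34 h only is low as well.

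By function, 53 of the 364 genes stood on 18 of 31 gene lists, and 13 lists had none. Read against 1.66% of all protein-coding genes, the share of a list's genes that had a region ran up to 7.55%, but no list had more than 7 such genes, so 1 or 2 genes make much of each share. A gene whose boundary region already had a peak at 14 h could not enter through that region, which bears on lists such as cell cycle genes, where 42 of 52 had a 14 h region. A region with a peak of any 34 h library lay within 1 kb of a start or end of 26 of 71 translation factor genes. The same was so for 24 of 88 cytosolic ribosomal protein genes. Such regions could be shared by several genes or hold a 14 h peak. The share over all protein-coding genes was not counted in this way at 14 h or at 34 h. No excess can therefore be read from the counts of list genes with a 14 h or a 34 h region.

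Genes of RNA handling and transcription stood on several lists, with shares from 0 to 7.55%. Of 53 RNA helicase genes, 4 (7.55%) had a region. Dhx8, which releases spliced mRNA from the spliceosome, had folds of 6.28 in replicate 1 and 10.3 in replicate 2. Ddx59 had 6.72 in replicate 2 and 5.77 in replicate 3, Ddx17 had 5.27 and 7.31 in replicates 1 and 2, and Ddx39b, an mRNA export helicase, had 4.58 and 3.88. Of 83 genes for RNA polymerase subunits, Mediator and TFIID, 4 (4.82%) had a region. They were Tbp, the TATA-binding protein (4.24 and 5.02), Taf5, a TFIID scaffold subunit (5.23 and 5.92), Taf15 (5.35 and 8.08) and the Mediator subunit Med23 (4.79 and 8.85). Nup35 (5.38 and 4.73) and Nup54 (5.57 and 7.81) were 2 of 31 nuclear pore genes, and Rbm15 and Rbm5 (5.46 and 6.72) were 2 of 42 RNA-binding motif genes. None of 40 SR and hnRNP splicing genes and none of 26 SP and KLF genes had a region.

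Among chromatin genes, 3 histone demethylases stood out of 68 modifiers and remodellers: Kdm3a, Kdm4a (6.17 and 7.17) and Kdm4b (5.50 and 5.64). Of 64 replication-dependent histone genes, H4c6, H4c12 and the linker histone H1f4 (4.81 and 7.95) had a region, while 45 of the 64 had any region with a 34 h peak. The share of all protein-coding genes with such a region was not counted, so no excess can be read from the 45. The histone genes are clustered and near-identical in sequence, so placement of reads among them is uncertain.

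Among genes of protein synthesis and folding, the chaperone list had 4 of 88. They were Hspa9, the mitochondrial HSP70 (6.84 and 6.35), Hsph1, an exchange factor of HSP70 (5.94 and 6.86), the co-chaperone Dnajb5 (5.31 and 7.76) and Tcp1, a subunit of the cytosolic chaperonin (4.16 and 8.37). The list of mitochondrial ribosomal genes had 3 of 77, with Mrps14, Mrpl45 (5.31 and 6.05) and Mrps36 (5.94 and 4.28). A place on that list does not show that the product, such as that of Mrps36, is a part of the ribosome. Cytosolic ribosomal genes had 3 of 88, with Rps29 (7.88 in replicate 2 and 6.30 in replicate 3), Rpl22l1 (5.34 and 4.75) and Rpl27 (3.74 and 6.09). The synthetase gene Nars (5.94 and 6.72) was 1 of 37, and the proteasome gene Psmd3 (4.40 and 4.15) was 1 of 53. No translation factor gene (0 of 71) and no oxidative phosphorylation gene (0 of 97) had a region.

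The remaining lists with a region had 1 to 7 genes each. Rab11b (6.39 and 6.68), Rab18 (5.41 and 5.07) and Rab30 (6.69 and 7.67), which direct membrane traffic, were 3 of 69 Rab genes (4.35%). Usp1 (5.82 and 5.26), Usp2 (6.28 and 7.90) and Ube2e2 (5.50 and 4.59) were 3 of 93 ubiquitin enzymes. Solute carriers had 7 of 360, led by Slc25a39, a mitochondrial carrier, with a lower fold of 6.25. The others were Slc35a1, Slc25a42, Slc25a28, Slc17a5, Slc38a2 and Slc20a1, with lower folds from 6.04 down to 4.24. The list of zinc finger genes named Zfp, Zscan or Zkscan had 7 of 424, led by Zscan20 with a lower fold of 6.54. The others were Zfp212, Zfp444, Zfp963, Zfp866, Zfp317 and Zfp622, with lower folds from 5.48 down to 3.72. The remaining single genes were Rb1, the retinoblastoma gene (6.87 and 5.80), for cell cycle genes, Tgif1, a repressor of SMAD signalling (4.81 and 6.36), for TGF-beta and BMP signalling, and Ncam1, a cell adhesion gene that myoblasts also express (6.07 and 5.74), for the neural list.

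The muscle lists had no member gene. None of 54 muscle contraction and differentiation genes and none of 22 myogenic transcription factor genes had a region, although 5 and 7 of them had some region with a 34 h peak. The share of all protein-coding genes with such a region was not counted, so the 5 and 7 cannot be called many or few. The lists for haematopoietic genes (30), adipogenic, cartilage and bone genes (29), interferon and inflammatory genes (37) and olfactory receptors (1110) had none, nor had Notch pathway (37), mitochondrial import (25) or kinesin genes (42). At 1.66% of all genes, a list of this size other than the olfactory receptors would hold few member genes or none, so these counts of 0 say nothing particular about the lists. Genes expressed in muscle cells but on neither muscle list, such as Lmcd1, were among the 364. A peak list does not show which cell types were in the dish, so these counts are not a check of the myoblast label.

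**Figure D5:**
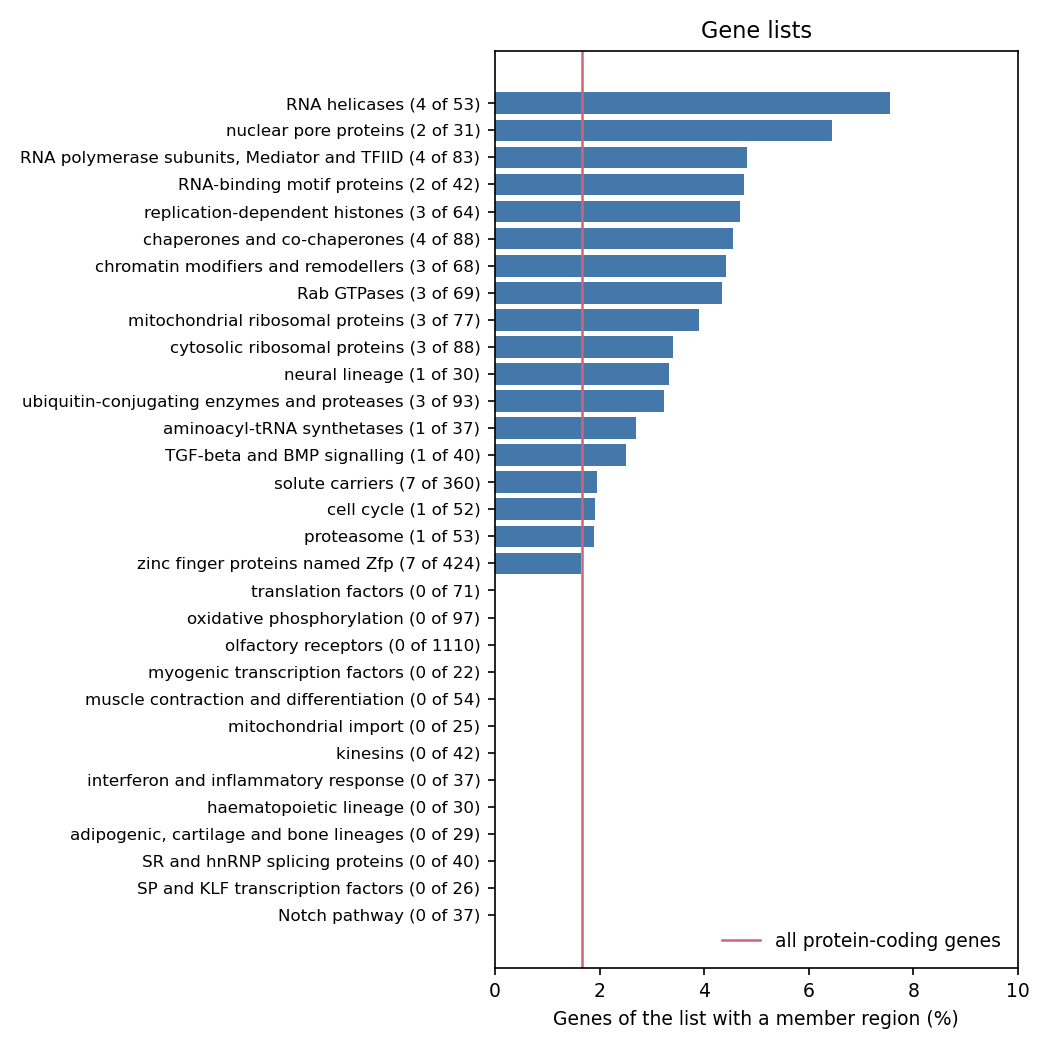
The percentage of the genes of each list that had a member region (x axis), with the number of such genes and the list size beside each name; the red line marks 1.66%, the share of all protein-coding genes. RNA helicases have the longest bar, at 7.55% from 4 of 53 genes, and 13 lists have no bar.

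A peak outside the member regions lay in the gene or within 1 kb of it for 5, 14 and 7 of the 364 genes in the 3 libraries of 14 h (1.37%, 3.85% and 1.92%), and for 20, 60 and 5 in those of 34 h (5.49%, 16.5% and 1.37%). Over all protein-coding genes, the shares with any peak in the gene or within 1 kb of it were 3.72%, 6.50% and 3.97% at 14 h and 9.24%, 18.1% and 4.70% at 34 h. Most genes of either kind thus had no such peak, and the rule itself kept out a 14 h peak or a peak of every 34 h library at the member regions. Of the 369 regions, 11 had a 14 h peak within 1 kb without touching it. The nearest were at Ubxn2a (28 bp), the export receptor gene Xpo1 (144 bp), Dyrk1a (166 bp), Asxl1 (171 bp), Asf1a (212 bp) and Usp1 (238 bp), and the others at Tnpo1, Taf5, Nr2c2, Rsbn1 and Wnk1. In 7 regions the 34 h library that lacked a peak had one within 1 kb, at Zranb1 (18 bp), Usp1 (93 bp), Phactr4 (118 bp), Xpo1 (143 bp), both regions of Luc7l2 (517 and 585 bp) and Tbx3 (709 bp). At Usp1 and Xpo1 both kinds of neighbour were present, so peaks of the libraries counted as lacking one lay beside these regions without overlapping them. Neighbours of either kind were not counted for other region sets, so the 11 and the 7 cannot be called many or few.

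In 5 cases a gene had more than 1 region, namely Cox20, Gsk3a, Ifrd1, Luc7l2 and Rap2a. Gsk3a, a kinase of glycogen and WNT signalling, had folds of 5.73 and 6.86 at the region 6.5 bp from its start and 6.67 and 5.59 at the one 549.5 bp upstream. Rap2a, a small GTPase, had 5.46 and 7.76 at the region whose summit was 187.5 bp upstream and 4.82 and 6.27 at the farther one. Of the 5 genes, only Luc7l2 had its 2 regions in different pairs of libraries.

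Non-coding genes lay near some of the regions. A long non-coding RNA gene lay within 1 kb of 62 regions (16.8%), against 15.4% of the regions of all 6 libraries and 16.1% of those of all 3 libraries of 34 h only. A microRNA gene lay within 1 kb of 5 regions (1.36%), at Ifrd1 (both regions), Wdfy2, Pigu and Add1, against 0.515% of the regions called only in replicate 2 and none of the 267 and 112 regions. A tRNA gene lay near 2 (0.542%), at Ppp6r3 and Sacm1l, against 0.749% of the regions of all 6 libraries and 1.79% of those of all 3 libraries of 34 h only. These counts are too small to compare. By chromosome, 11 held the most regions, 37 (10.0% of the regions and 7.35% of the protein-coding genes), while chromosome 2 held 18 (4.88% and 8.14%). The X chromosome held 3 (0.813% and 4.41%), at Ogt, Rlim and Acsl4, and Y held none.

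Median folds on either side of the rule's thresholds are given here. Regions whose edge lay 0.5 to 1 kb from the boundary (29) had a median lower fold of 5.14, and those with the same peak pattern whose edge lay beyond 1 kb and up to 1.5 kb away (17) had 4.83. At single genes the regions with peaks in all 3 libraries of 34 h (112) had a median fold of 7.46 in replicate 2, against 6.17 for the 369 regions. The 79 regions with 2 peaks at 34 h and 1 at 14 h had a median lower fold of 5.50, against 5.26 for the 369 regions. Those with a peak in 1 library of 34 h and none of 14 h (1100) had a median of 5.30, from a single fold each.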

How the data were processed

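The 6 immunoprecipitated libraries and 2 inputs were grouped by time and replicate number from the sample titles. The submitters' processing notes name Subread, MACS2 and mm10, without versions or a calling threshold. Each library had its own peak list, and the names of the deposited lists pair it with the input of the same time. Fold, as deposited, is the linear ratio of signal to local background at the summit, taken here with 1 added to each. It is therefore lower than the plain ratio where signal exceeds background. Of the other deposited columns, 2 give significance as −log10 (of the p-value and of the q-value) and 1 gives an integer score. The library totals are unknown. Fragments over a summit were solved from the deposited fold and −log10 p under the Poisson model of MACS2, and 100% of peaks gave a whole number within 0.001. Of the deposited lists, all standard-chromosome peaks entered.

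Overlaps of 1 bp or more merged peaks into regions, and gene boundaries came from the RefSeq mm10 gene table with a window of 1000 bp. The member rule used presence of peaks, so no test was run, and shares carry exact binomial 95% intervals where stated. Members, gene lists and motifs were chosen with earlier results of these data known. The naming rule took the 25 genes of highest lower fold, the top 3 of each pair of libraries and those on a gene list. It also took the 5 nearest to and 5 farthest from a boundary. Genes named outside this rule were chosen after the members had been read. The order of the Crebzf region among equal values was alphabetical. The merging and counting were tested on simulated data. Alternatives changed the significance limit, list length, summit spacing, joining gap, gene window and libraries used. Python 3.11.15, pandas 2.3.3, numpy 2.4.6 and scipy 1.17.1 were used.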

Additional observations from a re-analysis of the deposited data

How the results depend on the processing

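The number of regions was 369 and stayed within 1.5 times of that for peaks of −log10 q of at least 5 (290), summits within 100 bp (330), joining peaks across 500 bp (366) and gene windows of 0.5 kb (357) or 2 kb (367). With lists of equal length it was 41, and 13 of the 364 genes were shared. Leaving out 1 library gave 113 to 439 regions. The share of replicates 1 and 2 was 85.6%, 51.2% with lists of equal length and 80.9% with summits within 100 bp. The median lower fold was 5.26, 5.64 for peaks of −log10 q of at least 5 and 7.09 with lists of equal length. The GC box share was 75.6%, and 25.1% for the longer form GGGGCGGGG. The causes of these shifts were not tested. The median boundary distance and the number of genes on lists stayed within their limits under every alternative run, and 86 of 93 values of single lists stayed within 1.5 times. The 86 include lists that stayed at 0, so they say little about how stable the counts were. Some counts of 0 moved. The muscle contraction and differentiation list and the interferon and inflammatory list had 1 gene each with the window of 0.5 kb. Translation factors had 1 with the window of 2 kb, and the Notch pathway had 1 for peaks of −log10 q of at least 5. No paired analysis was possible because no result comes from a test. Few fragments per summit limit what a missing peak can show.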

Other observations

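Further gene groups were listed only after the members had been read, so their counts stand above the 1.66% of all protein-coding genes by that choice and support nothing. Of 6 alpha-arrestin genes, whose products help sort membrane proteins and curb glucose uptake, 3 (50.0%) had a member region. They were Arrdc3, Arrdc2 (folds of 5.62 in replicate 1 and 7.12 in replicate 2 of 34 h) and Txnip (4.98 and 7.10). Of 19 genes for writers, erasers and readers of RNA m6A, 4 (21.1%) had a region. They were Rbm15, the writer subunit Virma (6.10 and 5.77) and the readers Ythdc1 (5.85 and 6.97) and Ythdf3 (5.94 and 5.39). Of 32 mTOR pathway genes, Mtor, its activating GTPase Rheb (6.02 and 7.59) and Mios (7.06 and 5.32) had one (9.38%). Of 28 p53 pathway genes, Mdm2 (4.43 in replicate 2 and 5.66 in replicate 3), Ccng1 (5.30 and 7.05) and Rrm2b (5.96 and 5.28) had one (10.7%). Phosphatase subunits had 9 of 89 (10.1%) and autophagy genes 2 of 34 (5.88%), Atg2a and Uvrag.

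Single members outside these lists included Acta2, the smooth muscle actin (5.88 and 7.88), Fn1, fibronectin (5.43 and 6.56), and, in replicates 2 and 3, Yap1 (6.57 and 6.28), Snai1 (5.85 and 5.64) and Foxo3 (7.03 and 5.93). These genes were picked after the members had been read, so their choice supports nothing. By lower fold their regions ranked 94 (Acta2), 154 (Fn1), 49 (Yap1), 122 (Snai1) and 89 (Foxo3) among the members.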
